A study of Mus musculus with 2 samples.

Results

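Krtdap, Sbsn, Dmkn, Cnfn, Ivl, Lor, Flg, Spink5, Stfa3 and Calm4 are genes of the last steps of keratinocyte differentiation, and they are described here across single thymic epithelial cells of mice. They were chosen by name, without use of a threshold on measured values, and are 10 of the 32285 genes in the deposited tables. All 10 had unique molecular identifiers (UMIs, one per captured transcript) in both libraries. One library is labelled Foxp1 KO (Cre+) and the other Foxp1 WT (Cre-). Foxp1 encodes a forkhead transcription factor. Both libraries came from digested thymi, and the cells were enriched on Percoll and sorted by flow cytometry as live EPCAM+ cells. Since the genotype is entered as KO on both samples, the groups follow the titles and library names. The sources used here do not give the Cre driver, the exons removed, the age and sex of the mice or how many animals stand behind a library.

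Foxp1 itself was higher in the library labelled KO, with a log2 ratio of 0.68 over the WT library and a 95% interval of 0.64 to 0.73 in all epithelial cells. Whole-gene UMIs do not show whether a deleted part of the gene was missing, and the libraries are named by their labels throughout, as KO-labelled and WT-labelled. Each group is 1 library, so no difference between them has a replicate check and no test was run. Intervals cover counting error only. The KO-labelled library had 4277 barcodes with 25233944 UMIs and the WT-labelled library 4957 barcodes with 33120715 UMIs. Filtering kept 3584 and 4037 cells, of which 3262 and 3877 lay in epithelial clusters, with a median of 5207 and 6327 UMIs per epithelial cell. The libraries shared 5 barcodes, 3 of them among the cells kept.

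In the epidermis, keratinocytes that leave the basal layer replace their cytoplasm by a cross-linked protein shell, the cornified envelope, and seal the space around it with lipids. Involucrin and loricrin are laid down under the membrane and joined by transglutaminases, filaggrin bundles keratin filaments, and protease inhibitors set the pace at which dead cells are shed. In the thymus, some medullary epithelial cells take on such a programme and form corpuscles of keratinised cells, and medullary cells at the stage that expresses the regulator Aire show single skin genes to developing T cells along with genes of many other tissues.

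The genes lie in a few blocks of the genome. On the mm10 build with the GENCODE M21 annotation, Sbsn (chr7:30751471-30756134), Dmkn (chr7:30763756-30781063) and Krtdap (chr7:30787896-30791097) follow one another on the plus strand with no other coding gene between them, within 39.6 kb. Lor (chr3:92080271-92083142), Ivl (chr3:92570902-92573735) and Flg (chr3:93273523-93293686) lie within 1213 kb of the epidermal differentiation complex. Cnfn (chr7:25367620-25369724), Stfa3 (chr16:36450537-36455392), Calm4 (chr13:3837757-3838673) and Spink5 stand apart from both blocks. Stfa3 has the near-identical stefin genes beside it, and Calm4, a gene of 1 exon, overlaps Gm40655 on the same strand, so UMIs of these 2 genes are less certain.

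The 250 bases before the RefSeq transcription start of GRCm38.p6 are shown for 5 of the genes, the 4 with matches that stand for both blocks and Stfa3 as one without. Capitals mark the AP-1 motif, TGANTCA, the site of the Jun and Fos factors that act widely in keratinocyte differentiation.
Krtdap, chr7:30787655-30787904, plus strand: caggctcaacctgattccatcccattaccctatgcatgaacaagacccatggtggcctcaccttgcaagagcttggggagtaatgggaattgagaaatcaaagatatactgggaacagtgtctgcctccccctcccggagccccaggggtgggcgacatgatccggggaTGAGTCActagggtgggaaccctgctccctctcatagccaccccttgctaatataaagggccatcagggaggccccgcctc
Sbsn, chr7:30751221-30751470, plus strand: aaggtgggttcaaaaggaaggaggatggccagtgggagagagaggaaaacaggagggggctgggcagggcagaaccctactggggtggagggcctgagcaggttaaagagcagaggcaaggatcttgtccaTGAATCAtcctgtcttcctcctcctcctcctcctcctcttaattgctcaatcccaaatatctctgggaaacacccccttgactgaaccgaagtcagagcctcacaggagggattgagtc
Ivl, chr3:92573736-92573985, minus strand: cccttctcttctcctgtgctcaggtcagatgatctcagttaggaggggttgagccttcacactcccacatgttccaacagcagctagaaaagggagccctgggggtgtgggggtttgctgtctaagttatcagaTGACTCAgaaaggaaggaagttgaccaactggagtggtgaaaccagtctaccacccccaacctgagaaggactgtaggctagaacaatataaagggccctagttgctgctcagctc
Lor, chr3:92083143-92083392, minus strand: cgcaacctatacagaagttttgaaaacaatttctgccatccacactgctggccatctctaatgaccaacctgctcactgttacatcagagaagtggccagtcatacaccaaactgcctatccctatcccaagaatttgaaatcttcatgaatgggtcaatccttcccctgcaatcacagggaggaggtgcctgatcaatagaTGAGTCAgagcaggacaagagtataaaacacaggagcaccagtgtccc
Stfa3, chr16:36455393-36455642, minus strand: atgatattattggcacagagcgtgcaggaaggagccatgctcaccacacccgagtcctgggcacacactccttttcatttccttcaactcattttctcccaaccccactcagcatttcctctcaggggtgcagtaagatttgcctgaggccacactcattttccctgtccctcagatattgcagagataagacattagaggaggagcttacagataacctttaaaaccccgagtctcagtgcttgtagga
Promoters were matched for 9 of the 10 genes, all but Spink5. Searched on both strands, TGANTCA was present in 6 of the 9 (Krtdap, Sbsn, Dmkn, Ivl, Lor and Flg) and in 7.82% of all 27025 genes with a promoter of this length. It ended 42 bases before the start in Lor, 75 in Krtdap, 110 in Ivl and 113 in Sbsn, and 97 in Flg. The 6 genes with a match are those of the 2 blocks, and Cnfn, Stfa3 and Calm4 had none. TATAAA, searched on the sense strand, was found in Krtdap, Ivl, Lor and Flg, 4 of the 9, against 8.94% of genes. CACCC, the core of the box bound by Klf factors and searched on both strands, was found in 8 of the 9 but also in 54.5% of all genes. ACCGGT, a core of the sites of grainyhead-like factors, was found in 0 of the 9 and in 2.13% of genes. No matches of different motifs shared bases in these windows, and a match is a run of letters, not a measured binding site.

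The genes were concentrated in 1 of 17 clusters of cells. Clusters were built with the 10 genes left out, so their levels did not shape the clusters. Cluster 13 held 156 KO-labelled and 231 WT-labelled cells, with medians of 5383.5 and 6747 UMIs, which is 4.78% (4.08% to 5.57%) and 5.96% (5.23% to 6.75%) of the epithelial cells. It carried 8 of 10 keratinocyte markers, yet its leading genes outside the 10 were Bpifa1, Gm94, Gsto1, Krt6a and Ltf, which include markers of airway secretory cells, and it is therefore called by its number. In the KO-labelled library, 9131 of the 14806 UMIs of the 10 genes, 61.7% (60.9% to 62.5%), were in cluster 13. In the WT-labelled library, 19814 of 28186, 70.3% (69.8% to 70.8%), were there. The same cluster held 4.4% and 5.5% of all UMIs.

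**Figure D1:**
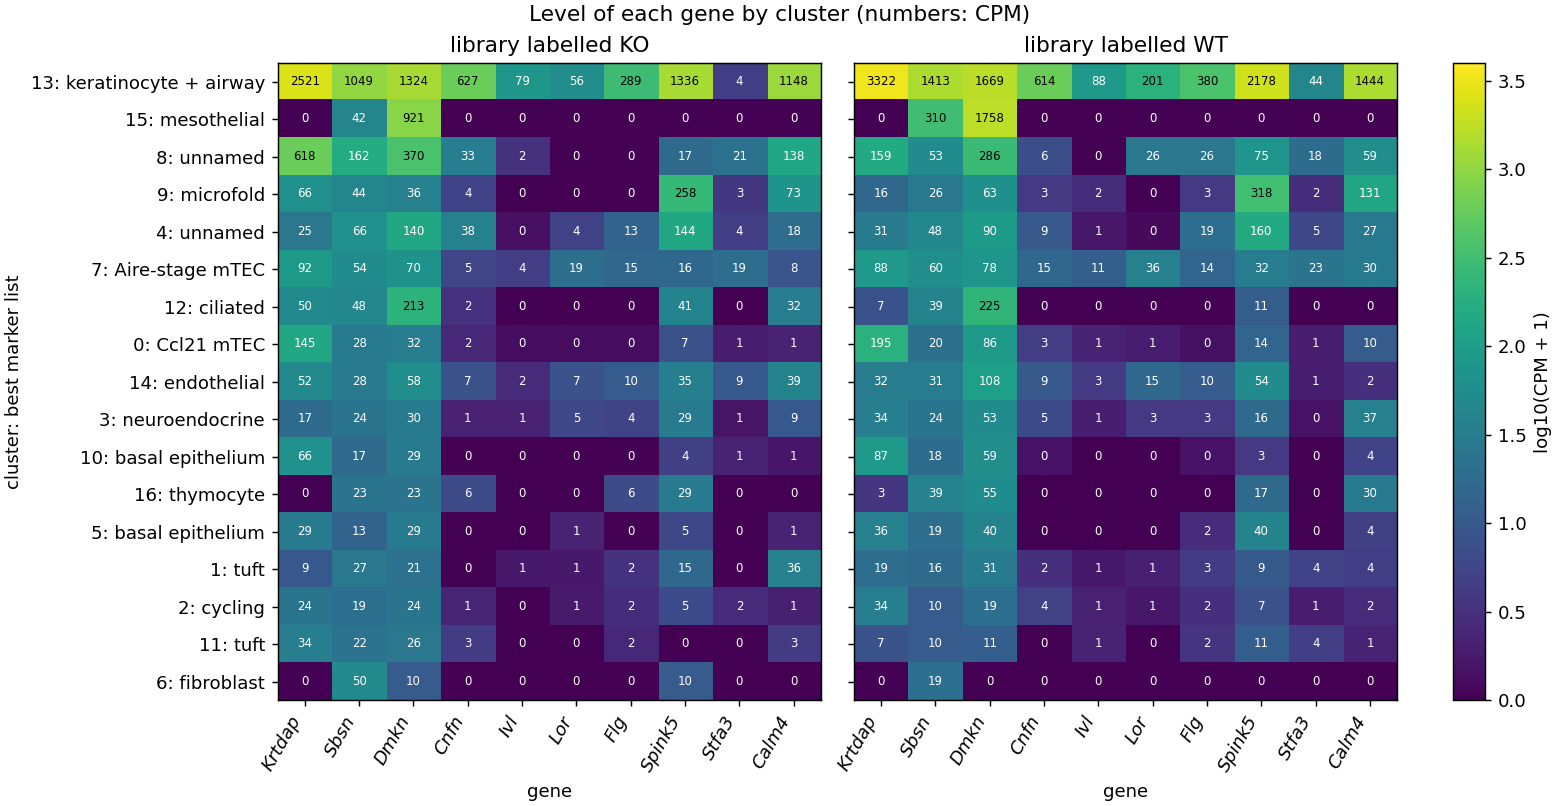
Levels in CPM (UMIs per 1000000 UMIs of the cluster) of the 10 genes in each of 17 clusters, KO-labelled library at left and WT-labelled at right, colours on a log10(CPM + 1) scale and rows ordered by the summed level. Cluster 13 is the top row for the sum in both libraries, for example 2521 and 3322 CPM of Krtdap; cluster 15 is mesothelial and holds only 10 and 7 cells.

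Krtdap encodes a small secreted protein of differentiating keratinocytes. It reached 2521 CPM in cluster 13 of the KO-labelled library and 3322 CPM in the WT-labelled one. Its next levels were 618 and 159 CPM in cluster 8, an unnamed cluster of low depth, and 145 and 195 CPM in cluster 0, whose markers were those of medullary cells with Ccl21a. In cluster 8 of the KO-labelled library, the order rested on 1 cell, and without the highest cell of each library the log2 ratio there was -0.08 in place of 1.96. Sbsn and Dmkn, its neighbours, encode secreted proteins of the suprabasal layers. Dmkn had 49.6% and 57.9% of its UMIs in cluster 13 and a level above 0 in all epithelial clusters of both libraries. Dmkn was also present in the mesothelial cluster 15, which is outside the epithelial cells, at 921 and 1758 CPM from 66 and 68 UMIs in 10 and 7 cells.

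Cnfn encodes cornifelin, an envelope protein. It had 80.9% and 83.1% of its UMIs in cluster 13. Calm4, a calmodulin-like protein of skin, had 78.2% and 79.2% there. In cluster 9, where microfold markers were high, it had 3.21% and 4.21%, near the 2.86% and 3.20% of all UMIs in that cluster. These Calm4 UMIs were in 5 and 10 cells, with 22 of 51 and 68 of 134 in 1 cell. Flg, filaggrin, had 70.0% and 72.9%. Spink5, a serine protease inhibitor of the granular layer, had 63.7% and 71.6% in cluster 13. Its further UMIs were in the unnamed cluster 4 (15.9% and 12.4%) and in cluster 9 (7.9% and 6.1%). Cluster 4 held 10.3% and 12.9% of all UMIs, so in the WT-labelled library its Spink5 share was not above that of all genes. In cluster 9, Spink5 stood at 258 and 318 CPM, its second highest level among the clusters in each library.

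Lor, Ivl and Stfa3 had part of their UMIs in cluster 7, to different extents. Cluster 7 carried 6 of 8 markers of Aire-stage medullary cells, with 378 and 619 cells, and held 17.4% and 24.9% of all UMIs. Lor, loricrin, had 44.7% and 42.0% of its UMIs in cluster 7 and 34.1% and 51.2% in cluster 13. Without the highest cell of each library, 53 of 80 and 223 of 287 Lor UMIs remained in cluster 7. In cluster 13, 16 of 61 and 111 of 350 remained, so the WT-labelled order rested on 1 cell. Ivl, involucrin, had 13.6% and 34.1% in cluster 7 and 78.2% and 58.0% in cluster 13, so that in the KO-labelled library its share in cluster 7 was below that of all UMIs. Stfa3, a stefin that inhibits cysteine proteases, had most of its UMIs in cluster 7 in both libraries, 60.3% (51.4% to 68.7%) and 57.7% (52.1% to 63.2%). In cluster 13 were 3.1% (4 of 131) and 24.3% (77 of 317) of Stfa3 UMIs. In the KO-labelled library this was less than in cluster 14, which carries endothelial markers and held 12.2% (16 of 131). That order rested on 1 cell of cluster 14, which had 13 of the 16 UMIs, and the cluster held 7.3% of all UMIs.

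**Figure D2:**
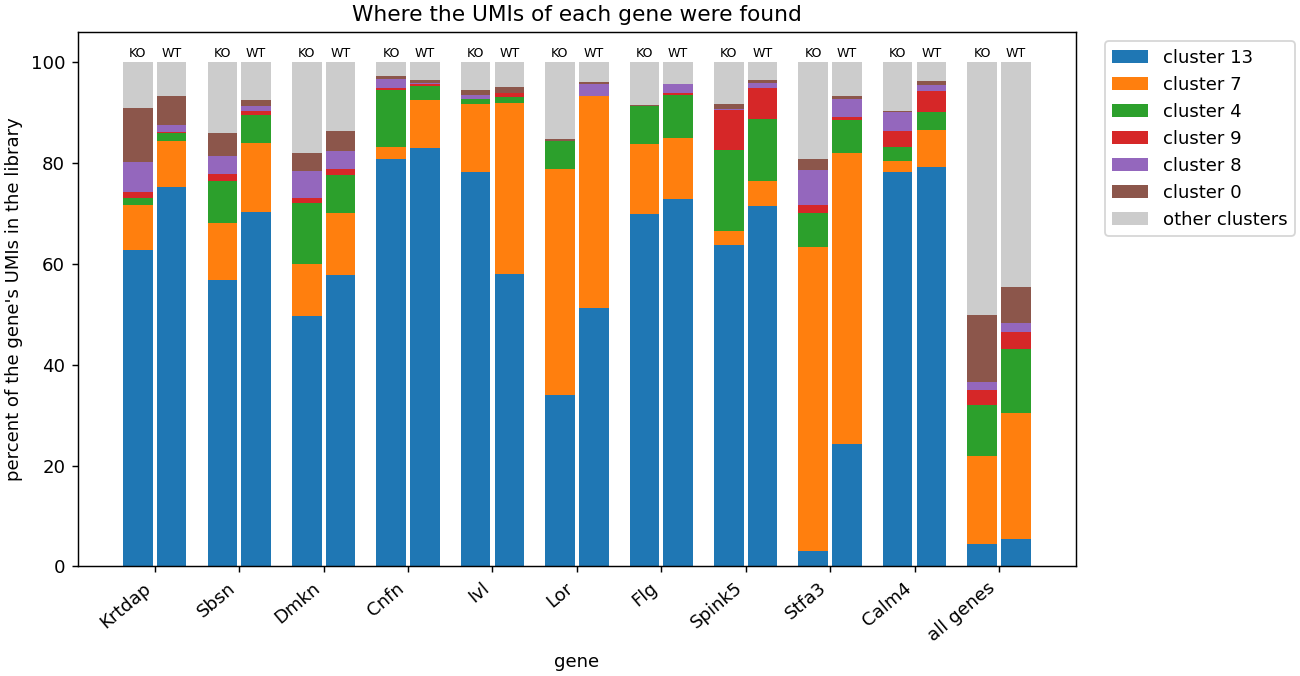
Percent of each gene's UMIs found in clusters 13, 7, 4, 9, 8, 0 and all others (stacked bars from 0), left bar KO-labelled and right bar WT-labelled, with all genes at the far right. Stfa3 shows the widest band for cluster 7, 60.3% and 57.7%, against 17.4% and 24.9% of the UMIs of all genes.

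Markers of neutrophils, which carry much stefin RNA, are given beside Stfa3. In cluster 7, all 8 neutrophil markers had UMIs, at 2628 and 2200 CPM together, most of it S100a8 with 7166 and 11536 UMIs. Stfa3 was found in 18 and 34 cells of cluster 7. Csf3r, a receptor gene of neutrophils, had a UMI in 0 and 0 of these. Csf3r was rare in the whole cluster, with 4 of 378 and 12 of 619 cells. S100a8 had a UMI in 14 and 20 of the Stfa3 cells, and in 214 and 349 cells of the cluster. S100a9 was in 10 and 13 of the Stfa3 cells and Camp in 2 and 3. Ngp was in 0 and 3, Retnlg and Cxcr2 each in 0 and 1, and Stfa2l1 in 0 and 0. In cluster 13, Csf3r, Retnlg, Ngp and Stfa2l1 were at 0 in both libraries while 4 and 22 cells had Stfa3. The other 4 markers had 1186 and 830 UMIs there, 1095 and 476 CPM. Of the Stfa3 cells in cluster 13, 2 and 12 had S100a9, 2 and 7 S100a8, 0 and 1 Camp, and 0 and 0 Cxcr2. Whether any Stfa3 RNA came from neutrophils was not tested.

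At equal depth cells with several of the genes were common in cluster 13 and rare in cluster 7. Each cell was thinned to 2000 UMIs and shallower cells were left out (11 and 21 in cluster 13, 1 and 3 in cluster 7). In cluster 13, 84.1% and 85.7% of cells had a UMI of any of the 10 genes, against 92.3% and 92.6% before thinning. In cluster 7 the shares were 24.1% and 25.5% after thinning and 48.7% and 51.1% before. Thymocytes should lack these genes, and in cluster 16, which carries thymocyte markers, 4.0% and 7.3% had a UMI after thinning (1 of 25 and 3 of 41 cells), with medians of 3885.5 and 4064 UMIs against 10206.5 and 11543 in cluster 7. With 1000 UMIs per cell the shares were 10% (3 of 30) and 7.1% (3 of 42) in cluster 16, 15.6% and 17.9% in cluster 7, and 78.8% and 82.7% in cluster 13, so the gap between clusters 7 and 16 was narrower in the KO-labelled library. At 2000 UMIs per cell, cluster 14, which carries endothelial markers, stood at 20.6% and 19.3%, and 26.5% and 34.1% of its cells also had a UMI of Aire. At 1000 UMIs per cell these shares of cluster 14 were 10.1% and 13.1%, and 16.3% and 22.2% for Aire. The part of free RNA or of mixed droplets in the shares of cluster 7 was not tested. Of the cells in cluster 13 thinned to 2000 UMIs, 48.3% and 53.8% had at least 3 of the 10 genes and 24.1% and 25.7% at least 5. In cluster 7, 1.3% and 1.5% had at least 3, and 0 of 377 and 1 of 616 cells had at least 5. The 0 of 377 allows a share of up to 0.796%.

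**Figure D3:**
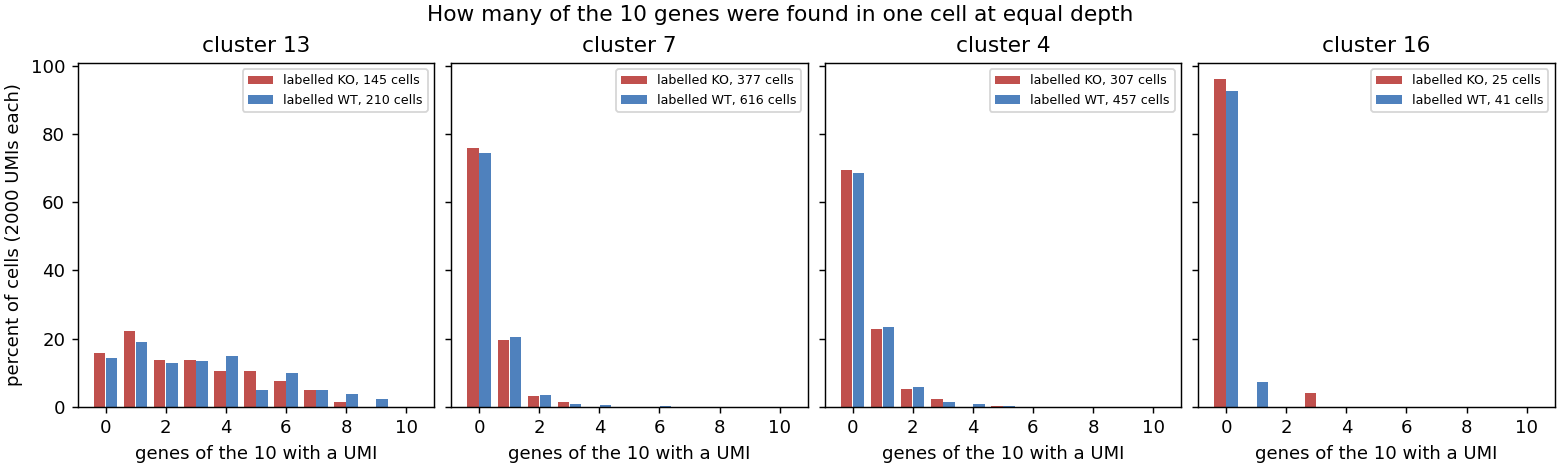
Percent of cells (vertical axis) by how many of the 10 genes had a UMI after thinning to 2000 UMIs, in clusters 13, 7, 4 and 16, red KO-labelled and blue WT-labelled. Only cluster 13 has a broad distribution, with 24.1% and 25.7% of cells at 5 genes or more, while in clusters 7, 4 and 16 most cells are at 0.

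Within cluster 13 most pairs of the genes were weakly and positively correlated over cells. Over its 156 KO-labelled cells, Pearson's r of log-scaled levels ran from -0.11 to 0.70 over the 45 pairs of the 10 genes, with a median of 0.27, and 43 pairs were above 0. Over the 231 WT-labelled cells it ran from -0.05 to 0.69, with a median of 0.32, and 44 pairs were above 0. The highest pair in each library was Krtdap with Dmkn (0.70 and 0.69), and Krtdap with Krt10, a keratin of the spinous layer, gave 0.54 and 0.58. The pairs share libraries and cells, and the sparse counts of Lor and Stfa3 bound what their pairs can show.

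Cluster 13 was not uniform. Divided further, again without the 10 genes, it gave 6 sub-clusters, a to f. Sub-cluster a (32 and 53 cells) had 10 of 10 keratinocyte markers and led with Krt16, Krt77, Crct1, Asprv1, Hrnr and Krt10. Sub-cluster b (44 and 55 cells) had 8 of 10, with Elovl4, Psapl1, Krt84 and Lypd3. It also had 3 of 8 markers of gut- and liver-like cells, and against the rest of cluster 13 it led with Prap1, Fabp9 and Ccl20. Sub-cluster c (16 and 33 cells) led with Gm94 and Dapl1 and carried 6 of 10 keratinocyte and 3 of 5 airway secretory markers. It had 6 and 16 cells with a UMI of Aire, at medians of 14444.5 and 11636 UMIs, which were 1 of 16 and 5 of 33 cells after thinning. Sub-cluster d (41 and 72 cells) carried 5 of 5 airway secretory markers and also 7 of 10 keratinocyte markers, and led with Muc5b, Tff1 and Ltf. Sub-cluster e (23 and 11 cells) led with Bpifa1 and Wfdc2. Sub-cluster f (0 and 7 cells) carried 5 of 5 ionocyte markers.

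The summed level of the 10 genes differed over 10-fold between these sub-clusters in each library. It was 25823 and 29651 CPM in a, 12395 and 12550 CPM in b, 4662 and 4682 CPM in c, 2785 and 4497 CPM in d, and 941 and 264 CPM in e. Krtdap, Sbsn, Dmkn, Cnfn and Calm4 had their highest level in a in both libraries, for instance 3928 and 3940 CPM of Calm4. Flg stood at 1365 and 1278 CPM in a, against 89.6 and 120 CPM in b and 352 and 68.9 CPM in c. Spink5 departed from this order. It stood at 3245 and 3208 CPM in a, 1254 and 1907 CPM in b, and 1629 and 2760 CPM in d, so that in d it was above its level in b in both libraries. In d, Spink5 supplied 372 of the 636 and 1351 of the 2201 UMIs of the 10 genes.

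**Figure D4:**
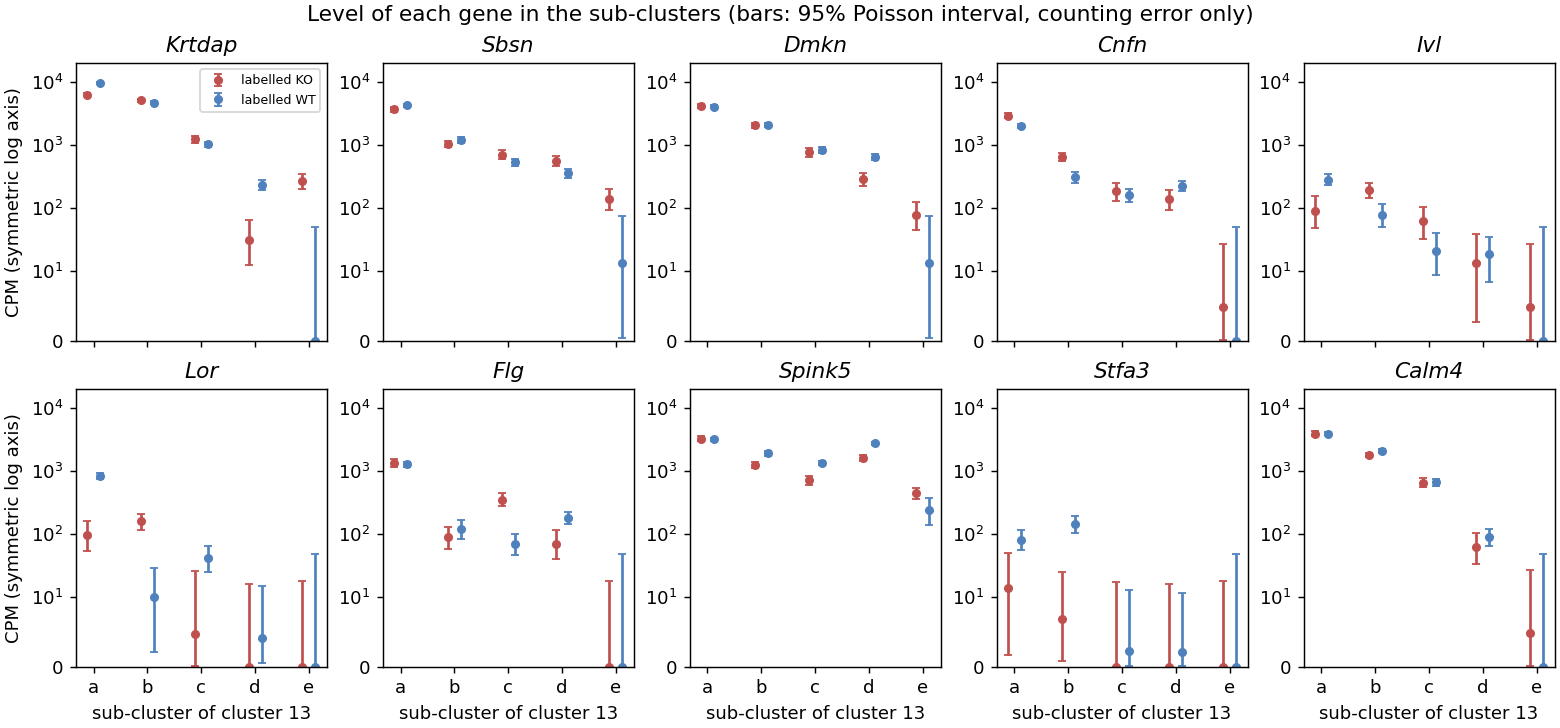
CPM of each gene (symmetric log axis, linear below 10) in sub-clusters a to e of cluster 13, red KO-labelled and blue WT-labelled, bars 95% Poisson intervals for counting error. Krtdap drops from 6330 and 9676 CPM in a to 30.7 and 229 CPM in d, while Spink5 stands at 1629 and 2760 CPM in d.

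A small number of cells carried most of the UMIs. In 40 KO-labelled and 64 WT-labelled cells of cluster 13 the 10 genes made up at least 1% of the cell's UMIs, and these cells held 77.8% and 77.0% of the cluster's UMIs of these genes. Of these cells 26 and 42 were in sub-cluster a, and 3 and 4 had a UMI of Aire. The highest cell of each library gave 7.7% and 13.1% of its UMIs to the 10 genes. For Krtdap, the 10 highest cells held 70.0% and 57.5% of its UMIs in cluster 13. For Lor, 45 of 61 and 239 of 350 UMIs were in 1 cell of each library. A ratio between the libraries therefore rests on few cells, and counting intervals understate its error.

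Between the libraries, the question was how the 10 genes differ with the Foxp1 label. In cluster 13 they were lower together in the KO-labelled library, 8434 against 11352 CPM, with a log2 ratio of -0.43 (interval -0.46 to -0.39). Of the 10 genes, 9 had a log2 ratio below 0, beside 54.3% of the 11044 genes with enough UMIs in this cluster. The median over the 10 was -0.40 and over all genes -0.04. At least 2-fold lower were 2 of the 10, Lor and Stfa3, beside 4.77% of all genes, and 0 were 2-fold higher, beside 4.45%.

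The make-up of cluster 13 moved with this difference. Sub-cluster e, the lowest in the 10 genes of those with cells in both libraries, was 14.7% of the KO-labelled and 4.76% of the WT-labelled cells of the cluster, and a, the highest, was 20.5% and 22.9%. Sub-cluster f, with 3 UMIs of the 10 genes (63.4 CPM), was 0% and 3.03% of the cells. A median cell of a had 4230 and 7190 UMIs, and a held 143591 of the 1082679 and 397491 of the 1745480 UMIs of cluster 13. The 5 airway secretory markers stood at 9205 and 3902 CPM and the 10 keratinocyte markers at 2108 and 2953 CPM in cluster 13. Inside sub-clusters the summed ratio was -0.20 (-0.25 to -0.15) in a, -0.02 (-0.08 to 0.05) in b, -0.01 (-0.12 to 0.10) in c, -0.69 (-0.82 to -0.56) in d and 1.83 (1.16 to 2.57) in e. With the sub-clusters weighted as in the WT-labelled library the log2 ratio was -0.18 in place of -0.43. With a stricter filter on cells, which left 55 cells in the class, it was -0.06, and with a finer clustering -0.16. The part of the make-up in the lower sum was not tested.

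Among the secreted proteins of the suprabasal layers, Krtdap had a log2 ratio of -0.40 (-0.46 to -0.33) in cluster 13. In a it stood at 6330 and 9676 CPM, a ratio of -0.61 (-0.72 to -0.51), and in b at 5154 and 4651 CPM, a ratio of 0.15 (0.04 to 0.25). The sub-clusters a and b thus differed in direction. Sbsn stood at 1049 and 1413 CPM, a ratio of -0.43 (-0.53 to -0.33), and at -0.22 (-0.37 to -0.08) in a. Its direction was the opposite in c, at 0.41 (0.10 to 0.71), and in d, at 0.67 (0.33 to 1.01). Dmkn stood at 1324 and 1669 CPM, a ratio of -0.33 (-0.43 to -0.24), and was at 0.03 (-0.11 to 0.17) in a. Krtdap and Dmkn were at 0.13 and 0.13 under the stricter cell filter.

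Among the envelope proteins, Cnfn stood at 627 and 614 CPM in cluster 13, a ratio of 0.03 (-0.11 to 0.17). Inside a it was higher in the KO-labelled library, 2932 against 2015 CPM, with a ratio of 0.54 (0.37 to 0.71), and inside b likewise at 1.07 (0.70 to 1.45). Ivl had 86 and 153 UMIs in 25 and 42 cells, 79.4 and 87.7 CPM, and a ratio of -0.14 (-0.54 to 0.25), which was -0.36 without the highest cell of each library. Its sub-clusters pointed apart, at -1.64 (-2.59 to -0.81) in a and 1.33 (0.61 to 2.10) in b. Lor had 61 UMIs in 6 cells and 350 UMIs in 16 cells, 56.3 and 201 CPM, a ratio of -1.83 (-2.25 to -1.44). Without the highest cell of each library, 16 and 111 Lor UMIs remained and the ratio was -2.10. In a it was -3.08, from 14 and 327 UMIs, and in b 3.99, from 46 and 3 UMIs, 45 of them in 1 cell. Flg stood at 289 and 380 CPM, a ratio of -0.39 (-0.59 to -0.20). Flg was at 0.09 (-0.15 to 0.34) in a, and at 0.09 over the cluster when each cell weighed the same.

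Among the inhibitors, Spink5 stood at 1337 and 2178 CPM in cluster 13, with a ratio of -0.70 (-0.79 to -0.62). It was at 0.02 (-0.14 to 0.17) in a, and at -0.60 (-0.80 to -0.41) in b, -0.90 (-1.17 to -0.64) in c and -0.76 (-0.93 to -0.59) in d. In e it was at 0.90 (0.16 to 1.72) from 92 and 18 UMIs. The interval thus included 0 in a, lay below 0 in b, c and d and above 0 in e, and the difference between sub-clusters was not tested. Stfa3 had 4 UMIs in 4 of 156 cells and 77 UMIs in 22 of 231 cells, a ratio of -3.58 (-5.49 to -2.16). The highest cell had 1 and 15 of these UMIs. After thinning, 2.07% (0.43% to 5.93%) and 6.67% (3.69% to 10.9%) of cells had a Stfa3 UMI, intervals that overlap. Outside these groups, the calmodulin-like gene Calm4 stood at 1148 and 1444 CPM, a ratio of -0.33 (-0.43 to -0.23), and was at 0.00 (-0.15 to 0.14) in a.

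**Figure D5:**
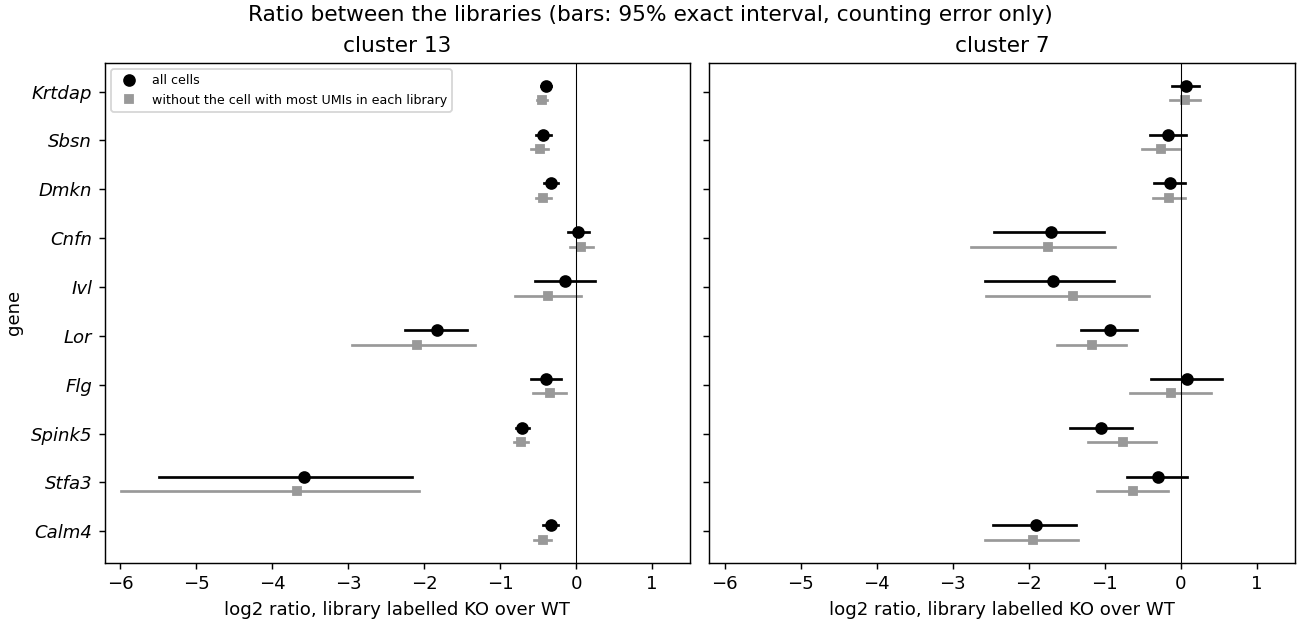
log2 ratio of the KO-labelled over the WT-labelled library (horizontal axis) for each gene in cluster 13 (left) and cluster 7 (right), black for all cells and grey without the cell with most UMIs of the gene in each library, bars 95% exact intervals for counting error. In cluster 13, Stfa3 (-3.58) and Lor (-1.83) lie farthest below 0; in cluster 7, Calm4 (-1.90), Cnfn (-1.70) and Ivl (-1.68) do.

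In cluster 7, where each gene was found in few cells, the 10 genes summed to 300 and 386 CPM, a log2 ratio of -0.37 (-0.46 to -0.27). Below 0 were 8 of the 10, beside 51.4% of 18563 genes. At least 2-fold lower were 4 (Cnfn, Ivl, Spink5 and Calm4), beside 5.34% of all genes, and 0 were 2-fold higher, beside 5.69%. Without the highest cell of each library for the gene, Spink5 was at -0.76 and no longer 2-fold lower, and Lor at -1.16 and then 2-fold lower. The median over the 10 was -0.62 and over all genes -0.01. The sum depended on how the cells were drawn together: under a finer clustering it was 0.20 and under a marker rule per cell 0.14, both opposite in direction.

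Calm4 had 34 UMIs in 13 cells and 238 UMIs in 38 cells of cluster 7, 8.0 and 29.8 CPM, a ratio of -1.90 (-2.46 to -1.38). Cnfn had 20 UMIs in 7 cells and 122 UMIs in 19 cells, a ratio of -1.70, and turned to 2.58 under the finer clustering. Ivl had 15 UMIs in 6 cells and 90 UMIs in 14 cells, 40 of these in 1 cell, a ratio of -1.68. Spink5 had 66 and 255 UMIs, 74 of the latter in 1 cell, a ratio of -1.04 (-1.45 to -0.65), which was 0.67 under the finer clustering. Lor had 80 UMIs in 10 cells and 287 UMIs in 21 cells, a ratio of -0.93 (-1.31 to -0.57).

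The other 5 genes differed less in cluster 7. Stfa3 stood at 18.6 and 22.9 CPM, a ratio of -0.30 (-0.70 to 0.09) that was -0.62 without the highest cell of each library, where cluster 13 gave -3.58. Sbsn was at -0.17 (-0.40 to 0.07), or -0.26 without the highest cells, and Dmkn at -0.14 (-0.35 to 0.06). Krtdap stood at 91.8 and 87.6 CPM, a ratio of 0.07 (-0.12 to 0.25), and Flg at 14.6 and 13.8 CPM, a ratio of 0.08 (-0.39 to 0.54), or -0.13 without the highest cells.

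Clusters 4, 8 and 9 also held part of the UMIs, and there not all 10 genes had the 20 UMIs over both libraries that a ratio was set to need. In the unnamed cluster 4, which led with Nos2, Ccl22 and Fabp9, 8 genes had them and 5 were below 0, beside 51.9% of genes. Of these, 0 were 2-fold lower, beside 4.52%, and Cnfn alone was 2-fold higher, beside 3.44%. Cnfn had 95 and 37 UMIs there, a ratio of 2.07, and 17 and 21 UMIs without the highest cell of each library, a ratio of 0.41. In cluster 8, 6 genes had enough UMIs and 1, Spink5, was below 0, beside 48% of genes. Spink5 had 7 and 47 UMIs, a ratio of -2.17, and was the 1 gene 2-fold lower, beside 7.19%, while Krtdap, Sbsn and Calm4 were 2-fold higher, beside 6.13%. In cluster 9, 5 genes had enough UMIs and 3 were below 0, beside 54.5% of genes. There 0 were 2-fold lower, beside 5.31%, and Krtdap was 2-fold higher, beside 3.51%, from 46 and 16 UMIs.

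Over all epithelial cells the 10 genes together stood at 640 and 909 CPM, a log2 ratio of -0.51 (-0.53 to -0.48). All 10 were below 0, beside 51.8% of 21824 genes, and Lor and Stfa3 were at least 2-fold lower, beside 4.16% of genes, and 0 were 2-fold higher, beside 2.78%. The ratios ran from -1.55 for Lor, -1.0 for Stfa3, -0.83 for Ivl, -0.80 for Spink5, -0.62 for Flg and -0.61 for Calm4 to -0.39 for Krtdap, -0.38 for both Sbsn and Dmkn, and -0.18 for Cnfn. Outside cluster 13 the sum was 242 and 277 CPM, a ratio of -0.19 (-0.24 to -0.14). There Krtdap (0.16) and Sbsn (0.15) were above 0, while Ivl (-1.92), Lor (-1.16) and Calm4 (-0.79) were the farthest below it. The share of cells in cluster 13, 4.78% and 5.96%, moved with the value over all epithelial cells, and its part in it was not tested.

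Wider lists of the same programme were compared in cluster 13, with 1 library per group and no test. Of the keratins listed, which include Krt6a, Krt6b, Krt16 and Krt17, 11 of 12 had enough UMIs. All 11 were below 0, beside 54.3% of all genes in this cluster, with a median of -0.46. Krt17 stood at 3237 and 4833 CPM, Krt16 at 710 and 899 CPM, and Krt10 at 364 and 525 CPM, ratios of -0.58, -0.34 and -0.53. Krt80, a keratin of late differentiation, was farthest below 0 at -0.76. Krt17 was not limited to cluster 13 and had a UMI in 333 of 378 and 568 of 619 cells of cluster 7. Of the transglutaminases and junction proteins 13 of 17 were below 0, beside the same 54.3%, with a median of -0.16. Dsp, desmoplakin of the desmosome, was at -0.17, Perp at -0.47 and Jup, plakoglobin, at -0.23. Tgm3, an envelope transglutaminase, was at 1.52 from 64 and 36 UMIs, with 34 of the 64 in 1 cell.

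The other envelope precursors did not lean one way: 9 of 17 with enough UMIs were below 0, beside 54.3% of all genes, and 8 above. Their median was -0.01. Sprr1a, a small proline-rich precursor, stood at 758 and 1131 CPM (-0.58), Rptn, repetin, at 526 and 557 CPM (-0.08) and Crct1 at 294 and 260 CPM (0.18). Lce3d was at -6.22, but 119 of its 120 WT-labelled UMIs were in 1 cell.

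Of the proteases and inhibitors 12 of 21 were below 0, close to the 54.3% of all genes in this cluster, with a median of -0.33. Cst6, a cystatin, stood at 3344 and 2421 CPM (0.47), with 1031 and 1085 UMIs in 1 cell each. Asprv1, the protease that processes filaggrin, was at -0.33, Serpinb2 at -0.50 and the kallikrein Klk10 at -1.34 from 12 and 49 UMIs. Of the barrier lipid genes 14 of 17 were below 0, beside 54.3% of all genes, with a median of -0.33. Elovl4, which elongates very long fatty acids, was among the 3 above 0, at 1.27, with 120 of its 391 KO-labelled UMIs in 1 cell. Alox12e was at 0.12 and Abhd5, a lipase cofactor, at -0.42.

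Of the secreted and surface proteins of upper layers 11 of 13 were below 0, beside 54.3% of all genes, with a median of -0.31. Ly6d was at -0.31, Dapl1 at -0.78, Lgals7, a galectin of stratified epithelia, at -0.57 and Lypd5 at -1.10. Of the regulators of the programme 14 of 16 were below 0, beside 54.3% of all genes, with a median of -0.29. Cebpb was at -0.24, Klf4, a factor of barrier formation, at -0.43, Hopx at -0.31 and Grhl3, a grainyhead-like factor of the barrier, at -0.79 from 39 and 109 UMIs. The keratinocyte lists share cells and the make-up of cluster 13 with the 10 genes. In cluster 7, where 51.4% of all genes were below 0, the lists did not lean the same way. Below 0 were 16 of 21 proteases and inhibitors (median -0.17), 8 of 12 keratins (-0.32), 9 of 16 transglutaminases and junction proteins (-0.30), 8 of 16 regulators (-0.03), 8 of 16 barrier lipid genes (0.02), 14 of 31 envelope precursors (0.31) and 2 of 13 upper-layer proteins (0.34).

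Likeness to the 10 genes was measured as Pearson's r of log2(CPM + 10) over 31 points, each a cluster in 1 library, among 19265 genes. The points share libraries and differ in depth, so r is a description. The genes most like the sum were Cysrt1 and Il1f9 (both 0.92), Rhbg and Ltf (both 0.90), Tmem54, Clic3, Upk2, Sdr9c7, Ear1 and Gm41715. For single genes the closest were Crabp2 for Krtdap (0.90), Cnfn for Sbsn (0.94), Clic3 for Dmkn (0.92), Cyp2b19 for Cnfn (0.95) and Dsc1, a desmosomal cadherin of upper layers, for Ivl (0.97). Cdsn, which encodes corneodesmosin, was closest to Lor (0.93), Muc15 to Flg (0.95), Krt84 to Spink5 (0.92), Krt23 to Calm4 (0.92) and Gm32461 to Stfa3 (0.87).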

How the data were processed

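Single cells were measured in 1 library per group. The values deposited by the authors are whole UMI counts of each gene in each barcode, not normalized, and per the file headers Cell Ranger 7.0.1 made them. Seurat and the build mm10 are named as well in the submitters' processing notes. No barcode held under 500 UMIs. The sources used here do not give the rule for choosing barcodes or the use of strand and intronic reads.

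Barcodes were kept at 500 genes or more, 1000 UMIs or more and 10% mitochondrial UMIs or less, and clustered together with scanpy 1.11.5 (3000 variable genes, 30 components, 15 neighbours, Leiden resolution 1, and 0.5 within cluster 13). The 10 genes, Foxp1, mitochondrial, ribosomal, haemoglobin, Xist and Y-linked genes were left out of the clustering. A cluster took a name from a marker list when at least 3 markers and 33% of the list were at least 2-fold above other cells and in at least 10% of its cells. Cells were named without an authors' annotation, so the clusters may differ from the study's. Scrublet called 0 and 2 doublets where 2.87% and 3.23% were expected, so it is taken not to have worked and doublets were not removed; an alternative left out the 103 and 130 cells with the highest scores.

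UMIs were summed per cluster and library and divided by the total (CPM). Levels carry exact Poisson, shares Clopper-Pearson and ratios exact conditional binomial intervals at 95%, for counting error only. The ratio interval was tried on simulated Poisson counts. These leave out the clumping of UMIs in few cells, so the trial does not cover that error. Genes with at least 20 UMIs over both libraries entered a background, and a count of 0 was given a limit of 3 counts. No test was possible with 1 library per group. The 10 genes and the gene lists were chosen with earlier results of these data known. All 10 genes were named, with the 3 most abundant of each list and the 1 with the largest ratio among those with at least 50 UMIs in cluster 13. Alternatives changed the cell filter, resolution, clustering genes, doublets, class rule, cell weight, scaling and low-count filter. Leaving out the highest cell, keeping sub-clusters a and b, and the WT-labelled make-up were added after seeing the data.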

Additional observations from a re-analysis of the deposited data

Results flagged for a closer look

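Some ratios outside cluster 13 pointed the other way from those inside it, with counting intervals that did not include 0. The difference between clusters was not tested, and each value is a log2 ratio of the KO-labelled over the WT-labelled library. Krtdap was at 1.96 in cluster 8 (259 and 99 UMIs) and at 2.08 in cluster 9 (46 and 16 UMIs), and without the highest cell of each library at -0.08 and 0.73, with intervals that include 0. Sbsn was at 0.71 in cluster 1, which carries tuft markers, at 1.01 in the cycling cluster 2, at 0.46 in cluster 4 and at 1.62 in cluster 8, and leaving out the highest cells left these at 0.71, 0.96, 0.40 and 1.48. Of these Sbsn values, the one in cluster 1 then had an interval that includes 0 (-0.03 to 1.43). Dmkn was at 0.63 in cluster 4 and 0.37 in cluster 8. Without the highest cells it was at 0.65 and 0.32, and the interval in cluster 8 included 0 (-0.05 to 0.69). Spink5 was at 0.84 in cluster 3, which carries neuroendocrine markers, from 52 and 33 UMIs. Without the highest cells it was at 0.35, with an interval that includes 0 (-0.47 to 1.17). Calm4 was at 3.29 in cluster 1 (45 and 10 UMIs) and 1.22 in cluster 8, and at 0.72 and 0.48 without the highest cells, again with intervals that include 0.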

How the results depend on the processing

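Each group is 1 library, and few cells carry most UMIs of these genes, so depth limits Lor, Ivl, Stfa3 and every level in cluster 7. No paired analysis was possible because each group has 1 library. For the sum in cluster 13 (log2 ratio -0.43), a stricter cell filter gave -0.062, resolution 0.5 gave -0.38, resolution 2 gave -0.16, the per-cell marker rule -0.50, equal weight per cell -0.35, median-of-ratios scaling -0.39, leaving out the highest cells -0.50 and the WT-labelled make-up -0.18; the cause of each shift was not tested. The number of the 10 genes below 0 there ranged from 6 to 10 (9 in the result as reported). Cnfn, at 0.03, was below 0 with the 10 genes in the clustering (-0.0050), without high doublet scores (-0.026) and under the per-cell rule (-0.29). It was also below 0 in the alternative without the highest cells (-0.13). Without the cell of each library that was highest in Cnfn itself, it stayed above 0, at 0.07 (-0.08 to 0.22). For the sum in cluster 7 (-0.37), the values in the same order were -0.51 for the stricter filter, -0.27 with the 10 genes in the clustering and -0.22 for equal weight, and the direction turned at resolution 2 (0.20) and under the per-cell rule (0.14). Over all epithelial cells the sum was -0.55 without the highest cells. The KO-labelled share of UMIs in the keratinocyte class was 33.7% with the stricter filter, 63.7% and 56.9% at resolutions 0.5 and 2, 64.1% with the 10 genes in the clustering, 63.4% without high doublet scores, 70.9% under the per-cell rule, 65.6% with equal weight, 59.3% without the highest cells and 49.3% for sub-clusters a and b. The WT-labelled share was 43.3%, 72.8%, 64.5%, 72.9%, 73.1%, 82.2%, 73.3%, 69.7% and 55.2% in the same order. Among single genes, the direction also turned in cluster 13 for Krtdap and Dmkn (both 0.13, stricter filter) and Flg (0.089 with equal weight, 0.19 with the WT-labelled make-up), and in cluster 7 for Cnfn (2.58 at resolution 2, 2.89 per-cell rule), Ivl (0.012, per-cell rule) and Spink5 (0.67 at resolution 2). With every gene of at least 1 UMI in the background, 18.4% and 15.1% of genes were at least 2-fold lower in clusters 13 and 7.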
